A study of Arabidopsis thaliana with 16 samples.

Results

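Rosette leaves of Arabidopsis plants that grew under short days (SD) and were heated early in a satellite flight were compared with leaves of ground controls heated in the same way. The comparison took every SD array of the series, 8 of 16, of which 4 came from space (sp) and 4 from the ground (gr). In each environment 2 arrays came from wild-type Col-0 plants (WT) and 2 from FG plants, which carry pHSP::FT and pHSP::GFP, that is the flowering gene FT and a fluorescent reporter, each behind the heat-inducible HSP17.4 promoter. All plants were cultured for 20 days before a flight of about 12 days and 15 h, SD meant 8 h light and 16 h dark, and all SD plants, controls included, were brought to 37 °C for 1 h on days 2 and 3. Each sample was 4 leaves from 2 plants, taken from the space plants about 2 h after landing. Space plants shared 1 flight unit and controls 1 ground unit, so that space cannot be told apart from the unit, the handling at recovery or the hour of harvest, and p-values measure only the spread between arrays. The long-day (LD) plants, which were not heated and are set beside SD where a response differed, had 16 h light and 8 h dark.

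Several signalling systems of a leaf leave a clear mark in its RNA. Heat-shock proteins are chaperones whose genes are switched on within minutes of heat by heat-shock factors. Jasmonate is a lipid hormone of wounding and touch, and the JAZ repressors that hold back its main transcription factor MYC2 are themselves induced by it, so that JAZ RNA is widely used as a readout of recent jasmonate signalling. The circadian clock is a loop in which LHY and CCA1, expressed around dawn, repress evening genes such as GI and LUX, while the PRR proteins follow one another through the day. The CBF factors, also called DREB1, are induced by cold, are gated by the clock and turn on the COR genes of freezing tolerance. In a bulk leaf, fewer cells of a type and less RNA per cell cannot be told apart.

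In SD leaves, 364 probe sets were higher and 206 were lower in space than on the ground (limma, adjusted p under 0.05 and at least 2-fold). These 570 are 4.25% of the 13416 probe sets tested, 2.71% higher and 1.54% lower, where 3383 had an unadjusted p under 0.05. The values are log2 signals with a floor of 6.23, the log2 of a signal of 75, and each difference is space minus ground with its standard error. Arrays of the 2 environments did not overlap for 550 of the 570, against 16.4% of all probe sets tested. The median rise among the calls was 1.38 and the median fall -1.67 on the log2 scale, and the change was at least 4-fold for 52 rises and 63 falls. All 570 had the same sign in WT and in FG, but the pooled fit that selected them favours a shared sign, so this is no separate test. No ground array had a present call for 46 of the probe sets that were higher, and no space array had one for 17 of those that were lower. No probe set had a called difference between the genotypes in the response (0 called, 416 at an unadjusted p under 0.05, limma). Within a single genotype, 2 arrays against 2, the same test called 1 probe set in WT (0.00745%), that of the thylakoid protein CaS, and 0 in FG, where 1772 had an unadjusted p under 0.05.

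The calls stood close to the threshold. With 1 array left out at a time, all 570 kept their sign and an unadjusted p under 0.05, and 479 stayed at least 2-fold, yet 5 were called in each of the 8 fits, namely DREB1A, CaS, EBF2, CB5-C and ERS1. Among space arrays, the number of calls was 5 when WT-SD-sp replicate 1 was left out, 31 for WT-SD-sp replicate 2, 49 for FG-SD-sp replicate 2 and 446 for FG-SD-sp replicate 1. Among ground arrays it was 184 for FG-SD-gr replicate 1, 552 for WT-SD-gr replicate 1, 697 for FG-SD-gr replicate 2 and 746 for WT-SD-gr replicate 2. The largest adjusted p of any of the 570 in these fits was 0.18. The split between rises and falls also depended on the scaling, since 63.9% of calls were rises as the authors scaled the arrays, 43.4% after median centring, 51.6% after quantile normalization and 95.1% after scaling to the spike-in controls, where the median of all probe sets moved from 0.12 to 0.62. All 570 kept their sign under these 3 scalings.

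**Figure D1:**
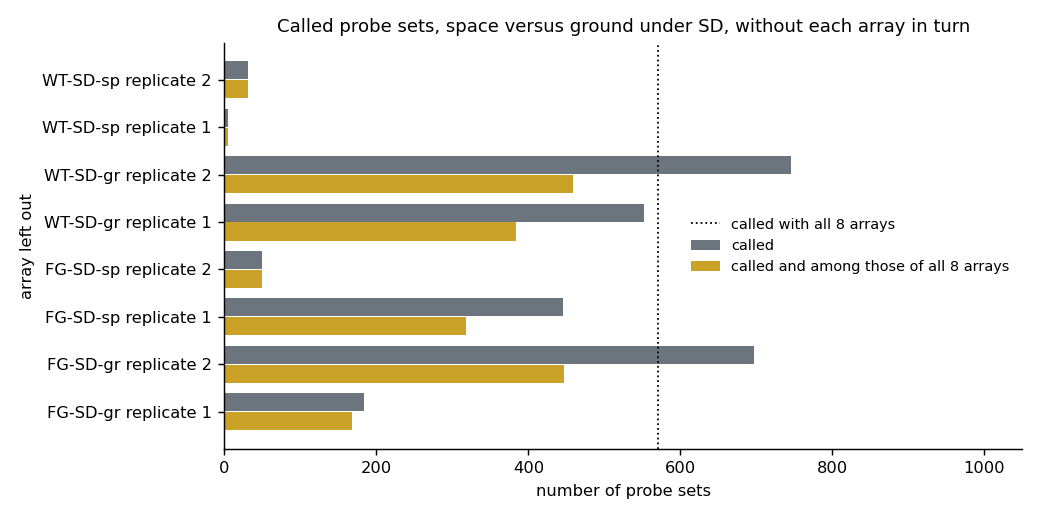
Number of probe sets called between space and ground in SD leaves when the array named on the axis is left out (bars) and the number shared with the 570 calls from all 8 arrays. Leaving out a space array other than FG-SD-sp replicate 1 brought the calls to between 5 and 49.

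The arrays of the 2 environments also differed in measures of RNA and labelling. Space arrays had 12620 to 13373 present calls and ground arrays 11893 to 12501. The spike-in controls averaged 11.06 to 11.25 in space and 11.61 to 11.88 on the ground on the log2 scale, and the GAPDH 3′ probe set exceeded the 5′ one by 0.10 to 0.48 in space and by 0.52 to 0.98 on the ground. Neither measure overlapped between the environments, nor did present calls (exact permutation test, 2-sided, p = 0.0286, the smallest that 4 against 4 allows, adjusted p = 0.0343). Their part in the results was not tested. Space arrays correlated with each other at 0.94 to 0.97, ground arrays at 0.83 to 0.92. All 6 mesophyll markers were present on every array, none of the 3 stem secondary wall markers was present on any, and 5 of 7 root and 6 of 8 flower organ markers were present on none. The 2 flower organ markers above the filter averaged 8.51 and 8.23 on the FG space arrays and 6.71 and 6.23 on the FG ground arrays. On the WT arrays they averaged 6.23 to 7.19. Neither was called, and whether the samples held flower tissue was not tested.

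FT, the protein signal that moves from leaf to shoot apex to start flowering, was at the floor on all 4 WT arrays. In FG it was 7.48 and 9.67 on the ground and 6.23 and 7.69 in space, so that 1 FG array from space also stood at the floor. Whether the probe set reads the transgene as well as the native gene is not stated in the sources. The environments overlapped, with a difference of -0.81 ± 0.56 (adjusted p = 0.40). Of 14 floral integrator and identity genes, 4 were above the low-signal filter. Of these, 0 were called by limma or, after adjustment, by a Student t-test of space against ground. In limma 1 had an unadjusted p under 0.05. SOC1, a MADS-box integrator downstream of FT, was 7.36, 7.89, 8.95 and 9.56 on the ground, in the order WT, WT, FG and FG, and in space it was 8.39 and 8.30 in WT and up to 10.21 in FG (0.79 ± 0.22, adjusted p = 0.074).

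**Figure D2:**
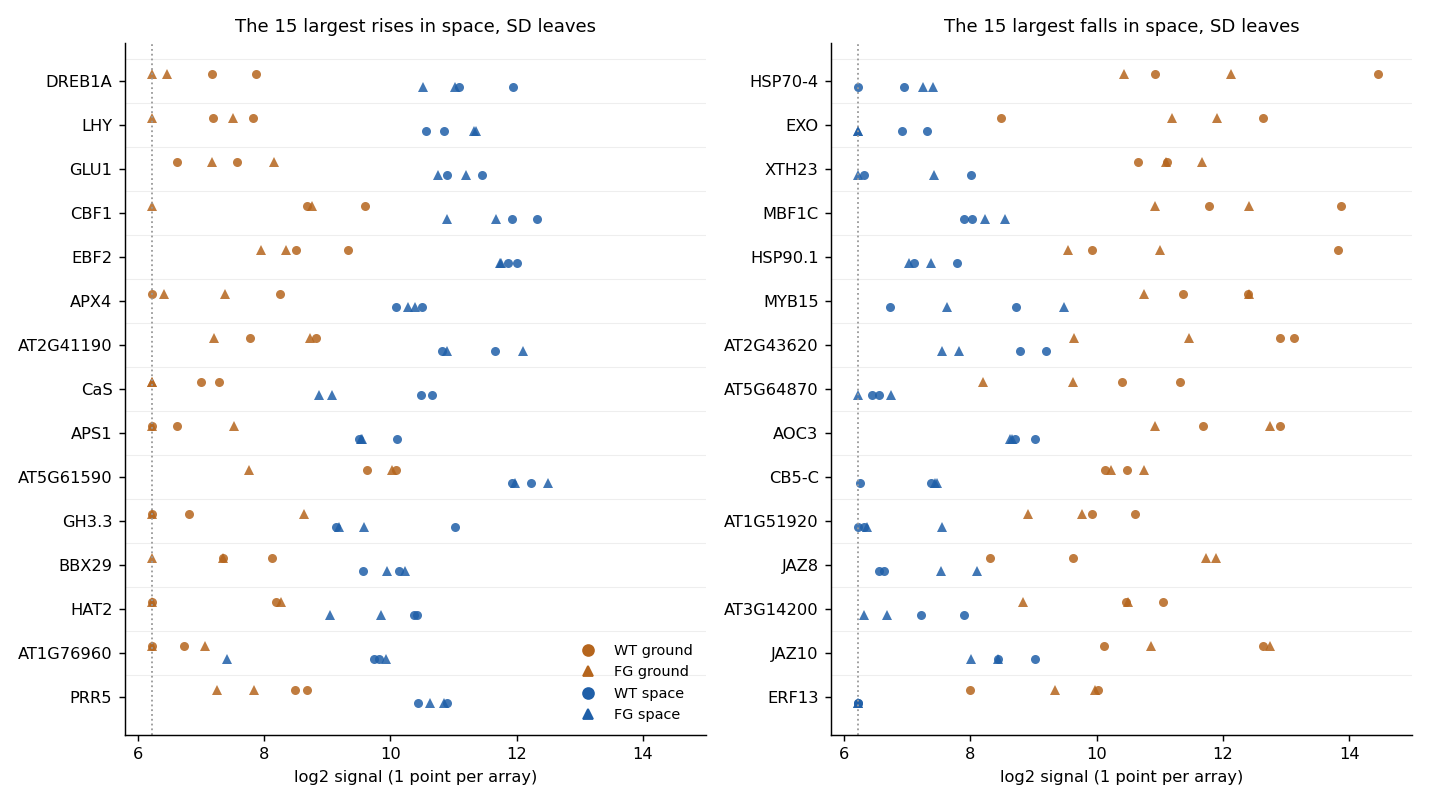
Log2 signal on each of the 8 SD arrays for the 15 largest rises and the 15 largest falls among called genes with no overlap between environments (dots WT, triangles FG, brown ground, blue space, dotted line the floor at 6.23). HSP70-4 fell furthest and DREB1A rose furthest, and the ground arrays of most genes are more widely spread than the space arrays.

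Heat-shock genes were lower in space. All 17 members that could be tested, of 27 in the list, had a negative difference, 4 fell, and the median of the list was -1.56 beside 0.12 over all probe sets tested. Members such as HSFA2, HSP101 and a probe set shared by AT1G07400 and AT1G59860 stood at the floor on all 4 space arrays. They passed the filter only through ground arrays and could not have been positive, so their sign carries no information. HSP70-4, a cytosolic HSP70 chaperone, was 14.46, 10.92, 12.13 and 10.44 on the ground (WT, WT, FG, FG, as in every list of 4 values here) and 6.23, 6.94, 7.25 and 7.41 in space. This was a 32.7-fold fall (-5.03 ± 0.81, adjusted p = 0.021), the largest of all named falls, and the environments did not overlap. MBF1C, a heat-induced transcriptional coactivator, stood between 10.92 and 13.86 on the ground and between 7.90 and 8.55 in space (-4.07 ± 0.55, adjusted p = 0.015). HSP90.1, the inducible cytosolic HSP90, fell by 3.75 on the log2 scale (SE 0.79, adjusted p = 0.039), and HSFB2B, a class B heat-shock factor that acts as a repressor, fell by 1.56 (SE 0.33, adjusted p = 0.039). HSFA2, a factor that sustains the heat response, was at the floor on all 4 space arrays and 12.52, 9.84, 9.44 and 6.75 on the ground, with an adjusted p of 0.062.

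One ground array carried much of that list. The mean log2 signal over heat-shock members was 11.54 on WT-SD-gr replicate 1 and 8.66 to 9.37 on the other 3 ground arrays, while the space arrays lay between 7.58 and 7.73. Without that array the list's median was -0.85, and the difference was -4.11 for HSP70-4, -3.50 for MBF1C and -2.83 for HSP90.1. HSP101, the disaggregase of the cytosol, was not detected above the floor in space, and its difference of -2.11 (adjusted p = 0.24), or -0.85 without that array, is at least that large in size. Leaving it out, 4 members were called, and leaving out WT-SD-sp replicate 1, WT-SD-sp replicate 2 or FG-SD-sp replicate 2, 0 were. HSP17.4, whose promoter drives the transgenes, was below the filter. AT3G14200, a DnaJ-domain protein outside the list, was 11.06, 10.47, 10.49 and 8.84 on the ground and 7.89, 7.22, 6.32 and 6.69 in space (-3.18 ± 0.37, adjusted p = 0.011), again with no overlap. Unheated LD plants had the same direction, with -5.96 ± 0.75 for HSP70-4 and -5.52 ± 0.53 for MBF1C, and neither gene had a called difference between daylengths.

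Jasmonate genes were lower in space, both those that make the hormone and those that respond to it. Of 14 signalling and response genes tested, of 17, 5 fell, 0 rose and 13 had a negative difference, with a median of -1.59. Of 16 synthesis and turnover genes, 3 fell and 0 rose, with a median of -0.90. MYC2, the main transcription factor of the pathway, was 11.38, 11.66, 11.86 and 11.61 on the ground and 10.07, 9.90, 9.87 and 9.69 in space (-1.75 ± 0.19, adjusted p = 0.0088). Its 8 values thus formed tight and well separated groups. JAZ8, a JAZ repressor, was 9.62, 8.31, 11.89 and 11.74 on the ground and 6.55, 6.63, 8.11 and 7.53 in space (-3.19 ± 0.41, adjusted p = 0.013), with FG above WT in both environments. JAZ10 fell by 3.12 (SE 0.61, adjusted p = 0.031), JAZ9 by 2.2 (SE 0.29, adjusted p = 0.014) and JAZ5 by 2.17 (SE 0.34, adjusted p = 0.021) on the log2 scale. JAZ1 did not overlap between environments either, at -1.12 ± 0.33, but its adjusted p was 0.089, and JAZ7 had -2.52 ± 0.89 with overlapping arrays. COI1, the receptor that marks JAZ proteins for degradation, had 0.47 and was the one positive member.

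The enzymes called lie early in jasmonate synthesis. AOC3, an allene oxide cyclase, was 12.90, 11.69, 12.75 and 10.93 on the ground and 9.02, 8.70, 8.66 and 8.63 in space, a 9.95-fold fall (-3.31 ± 0.42, adjusted p = 0.013). AOS, the allene oxide synthase one step before it, fell by 2.34 (SE 0.54, adjusted p = 0.048), and LOX4, a 13-lipoxygenase, by 1.77 (SE 0.31, adjusted p = 0.025). The ground values of AOC3 and AOS were higher on replicate 1 of each genotype than on replicate 2, and the space values were close together. OPR3, LOX3 and a probe set shared by the cyclase genes AT3G25760 and AT3G25770 had -1.91, -2.27 and -2.01 with adjusted p of 0.058, 0.051 and 0.092. Called members numbered 0 to 9 for the signalling list and 0 to 6 for the synthesis list as single arrays were left out, with 0 in both without WT-SD-sp replicate 1 or 2, and the medians ran from -1.74 to -1.18 and from -1.17 to -0.61.

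A few genes that respond to touch or remodel the cell wall fell. Of 8 xyloglucan endotransglucosylases tested, of 22, which cut and rejoin wall xyloglucan, 3 fell and 0 rose, with a median of -1.25. XTH23 was 10.66, 11.11, 11.67 and 11.10 on the ground and 6.32, 8.02, 7.42 and 6.23 in space (-4.14 ± 0.44, adjusted p = 0.0088), and its lowest ground value exceeded its highest space value by several-fold. XTH18 stood at the floor on all 4 space arrays and at 7.83 to 10.91 on the ground, a fall of at least 2.99 on the log2 scale (adjusted p = 0.027). It passed the filter only through ground arrays and could not have been positive, so its sign adds nothing to the list. TCH4, which is XTH22 and was found as a touch-induced gene, fell by 1.95 (SE 0.32, adjusted p = 0.021). EXO, a brassinosteroid-responsive growth gene, was 8.48, 12.63, 11.90 and 11.20 on the ground and 6.93, 7.31, 6.23 and 6.23 in space (-4.38 ± 0.82, adjusted p = 0.028). Its lowest ground value, on WT-SD-gr replicate 1, stood well below the other 3 and still above every space value. Of 14 touch and calcium genes, 2 fell (TCH4 and WRKY40) and 0 rose, with a median of -0.72. The median was -0.24 under spike-in scaling and -0.88 under median centring, where 5 were called. Of 8 expansins 0 were called (limma, 2 at an unadjusted p under 0.05). With WT-SD-sp replicate 1 left out, no member of these lists was called.

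Other regulators of stress and defence were among the falls. MYB15, an R2R3-MYB factor, was 11.37, 12.39, 12.42 and 10.75 on the ground and 6.73, 8.73, 9.48 and 7.63 in space (-3.59 ± 0.64, adjusted p = 0.026). ERF13, an ethylene response factor, was at the floor on all 4 space arrays and between 8.00 and 10.02 on the ground, at least 8.62-fold lower in space (adjusted p = 0.015). Like XTH18, ERF13 passed the filter only through ground arrays and could not have been positive. WRKY40, a WRKY factor induced by wounding and pathogens, fell by 1.67 (SE 0.30, adjusted p = 0.027). Of 15 reactive oxygen genes, APX1, a cytosolic ascorbate peroxidase, fell by 1.61 (SE 0.29, adjusted p = 0.027) and RBOHD, the NADPH oxidase of the plasma membrane, fell by 1.32 (SE 0.24, adjusted p = 0.027), while the catalase gene CAT1 rose by 1.14 (SE 0.24, adjusted p = 0.037). EDS5, an exporter needed for salicylic acid accumulation, was the 1 called member of 18 in that list, at -2.08 ± 0.30 (adjusted p = 0.017). In that list 6 members were positive and 12 negative, with a median of -0.22 (-1.41 in WT and 0.84 in FG). PCO1, a plant cysteine oxidase that senses oxygen, was the 1 called member of 11 low-oxygen genes, at -1.87 ± 0.26 (adjusted p = 0.016). Of those genes 4 were positive and 7 negative, with a median of -0.10. Over all probe sets tested 4.25% were called, so 1 call in either list is no result about the list.

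Glucosinolates are sulfur-rich defence compounds, and the genes of their synthesis that fell include the entry enzymes of the indolic branch, which starts from tryptophan. Of 14 tested, of 18, 5 fell and 0 rose, with a list median of -0.40 that was -0.88 under median centring, -0.77 under quantile normalization and -0.01 under spike-in scaling. CYP79B2, which takes the first step, was 10.72, 10.21, 10.93 and 11.33 on the ground and 6.23, 7.3, 7.64 and 9.67 in space (-3.08 ± 0.49, adjusted p = 0.021). CYP83B1, the next enzyme of that branch, fell by 1.77 (SE 0.35, adjusted p = 0.034), UGT74B1, a glucosyltransferase, by 2.1 (SE 0.25, adjusted p = 0.012), and SOT16, a sulfotransferase, by 2.37 (SE 0.42, adjusted p = 0.026). The fifth called member, CYP79B3, the close relative of CYP79B2, was looked at after its values were seen and fell by 1.53 (SE 0.32, adjusted p = 0.037) with overlapping arrays. The 4 positive members were aliphatic branch genes, with 1.08 for MAM1, 0.39 for MAM3, 0.77 for CYP83A1 and 0.28 for BCAT4, and were not called. The other 10 members were negative and were not all assigned to a branch here. GTR1, a glucosinolate transporter also looked at after its values were seen, was 11.44, 10.25, 10.74 and 9.09 on the ground and 7.73, 7.0, 7.95 and 7.49 in space (-2.84 ± 0.47, adjusted p = 0.022). Without WT-SD-sp replicate 1 or WT-SD-sp replicate 2, 0 of the 14 were called.

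**Figure D3:**
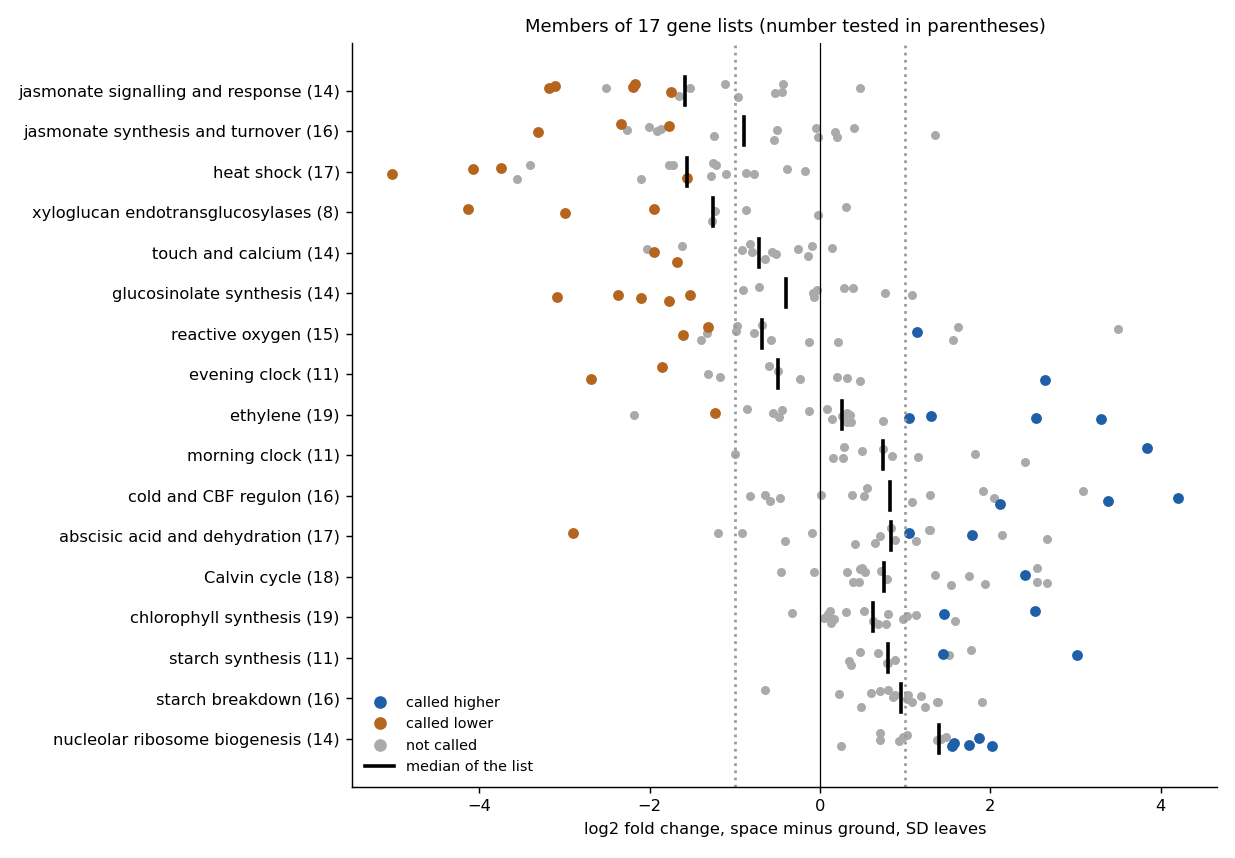
Log2 fold change (space minus ground, SD) of the tested members of 17 gene lists, with called members coloured, a black bar at the list's median and dotted lines at a 2-fold change either way. Every heat-shock member lies below 0 and every nucleolar and starch synthesis member above it. Heat-shock members at the floor on every space array could not lie above 0. The starch synthesis members APS1 and SS1 passed the filter only through space arrays and had little room below 0.

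The CBF genes were among the largest rises. DREB1A, also called CBF3, was 7.87, 7.18, 6.46 and 6.23 on the ground and 11.93, 11.09, 10.52 and 11.03 in space, an 18.5-fold rise (4.21 ± 0.28, adjusted p = 0.0023). It was called with any array left out, at 4.06 to 4.42. CBF1 was 8.67, 9.60, 8.76 and 6.23 on the ground and 12.32, 11.92, 10.89 and 11.68 in space (3.39 ± 0.54, adjusted p = 0.021), and CBF2 rose by 2.11 (SE 0.35, adjusted p = 0.022). The 3 genes lie next to one another in the genome and have related sequences. Their targets were less even, since COR15A was 9.19, 6.68, 8.76 and 6.23 on the ground and 12.65, 10.36, 9.82 and 6.23 in space, where the value of 1 FG array equalled the lowest on the ground (2.05 ± 1.12, adjusted p = 0.29). LTI30, a dehydrin, had 3.09 ± 1.1 (adjusted p = 0.13), COR47 had 0.37 and ERD10 had 0.01. Of 16 cold and CBF regulon genes tested, 3 rose and 0 fell, with a median of 0.82 that ran from 0.03 to 1.5 with single arrays left out, and 1 to 3 were called.

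Clock genes moved in several directions. LHY was 7.19, 7.82, 7.51 and 6.23 on the ground and 10.85, 10.57, 11.35 and 11.33 in space, a 14.3-fold rise (3.84 ± 0.37, adjusted p = 0.0088). CCA1, its partner, was 8.64, 9.13, 9.25 and 6.39 on the ground and 10.79, 10.33, 10.93 and 10.98 in space, also without overlap, at 2.41 ± 0.59 and an adjusted p of 0.059. The low value on FG-SD-gr replicate 2 widened its error. GI, an evening gene that acts in flowering and in clock protein stability, was 10.39, 10.23, 10.77 and 9.49 on the ground and 8.27, 8.37, 8.52 and 8.27 in space (-1.86 ± 0.28, adjusted p = 0.019). A probe set shared by LUX (AT3G46640) and its relative BOA (AT5G59570), evening MYB factors whose signals cannot be told apart there, fell by 2.69 (SE 0.33, adjusted p = 0.012). ELF4 and PRR3, other evening genes, had -1.17 ± 0.33 and -1.31 ± 0.34 with adjusted p of 0.080 and 0.062, and TOC1 had -0.50.

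PRR5, an afternoon repressor of LHY and CCA1, rose. It was 8.48, 8.68, 7.25 and 7.83 on the ground and 10.90, 10.43, 10.85 and 10.63 in space (2.64 ± 0.29, adjusted p = 0.0088). The earlier PRR7 was 9.76 to 10.56 on the ground and 10.32 to 10.52 in space, with no difference beyond the spread (0.27 ± 0.21, adjusted p = 0.44). Of 11 morning clock genes 1 rose (LHY) and 0 fell, and of 11 evening clock genes 1 rose and 2 fell, with medians of 0.74 and -0.50, the latter 0.06 under spike-in scaling. COL1, a CONSTANS-like gene expressed around dawn, was 10.48, 9.70, 8.68 and 8.74 on the ground and 12.02, 11.15, 11.71 and 11.70 in space (2.25 ± 0.37, adjusted p = 0.022), and CO itself had -0.21. CDF2, a Dof factor that represses CO and FT, was the 1 called member of 12 floral repressors (2.00 ± 0.31, adjusted p = 0.021), while FLC had 0.22 and SVP -0.37. BBX29, a B-box protein, was 7.35, 8.13, 7.36 and 6.23 on the ground and 9.57 to 10.23 in space (2.71 ± 0.37, adjusted p = 0.016). LHY, GI, COL1, CDF2, BBX29 and the LUX and BOA probe set were not called without WT-SD-sp replicate 1, nor was PRR5, whose largest adjusted p in these fits was 0.059. As these genes cycle through the day, their differences cannot be told apart from a difference in the hour of harvest.

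**Figure D4:**
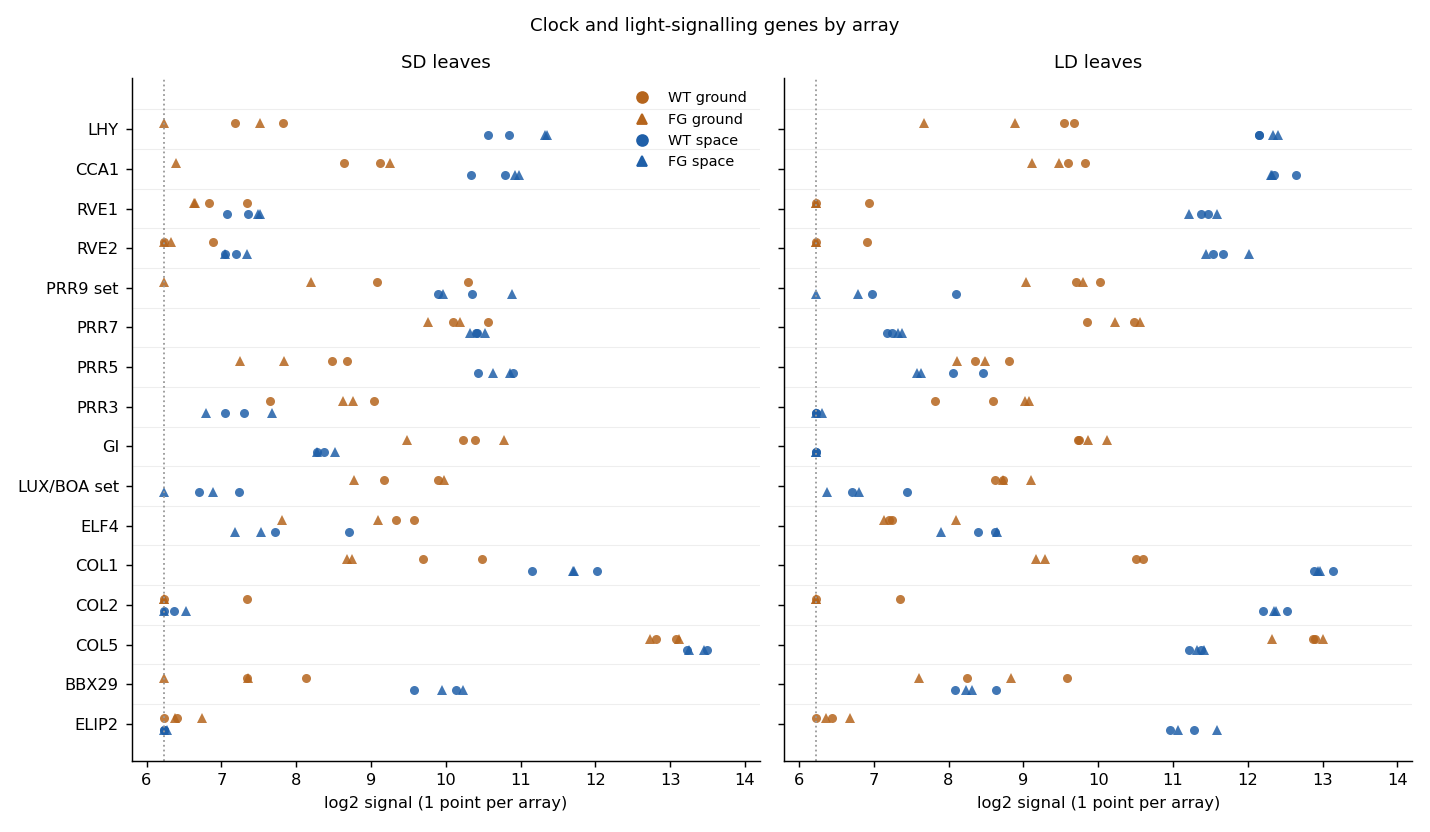
Log2 signal of clock and light-response genes on each SD array (one panel) and each LD array (the other), with ground in brown and space in blue and dots for WT and triangles for FG. LHY is high in space under both daylengths, whereas RVE1 and RVE2 stand far above the ground in space under LD and PRR5 under SD.

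Ethylene genes that rose act in perception and in restraint of the signal. EBF2, an F-box protein that targets the ethylene factor EIN3 for degradation, was 8.50, 9.33, 7.96 and 8.34 on the ground and 12.00, 11.86, 11.74 and 11.75 in space, a 9.88-fold rise (3.3 ± 0.25, adjusted p = 0.0033). ERS1, an ethylene receptor, was 8.67, 9.21, 8.84 and 9.28 on the ground and 11.57, 11.51, 11.41 and 11.64 in space (2.53 ± 0.21, adjusted p = 0.0046). Both had close values within each environment and were called with any array left out. ERS2, another receptor, rose by 1.3 (SE 0.21, adjusted p = 0.021), and CTR1, the kinase that receptors hold active to block the pathway, by 1.05 (SE 0.22, adjusted p = 0.040). ERF2, a response factor, fell by 1.24 (SE 0.24, adjusted p = 0.029). In all, 4 of 19 rose and 1 fell, the median was 0.25, and the receptors ETR1 and EIN4 had 0.25 and -0.13. The number called was 2 when either WT space array, FG-SD-sp replicate 2 or FG-SD-gr replicate 1 was left out, and 4 or 5 for the other arrays.

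Of the abscisic acid and auxin lists, 5 genes were called. AFP1, which binds the abscisic acid factor ABI5, rose by 1.79 (SE 0.37, adjusted p = 0.038), and ABF4, a bZIP factor of abscisic acid response, by 1.05 (SE 0.22, adjusted p = 0.039). CYP707A3, the hydroxylase that breaks abscisic acid down, was 8.99, 12.33, 11.28 and 10.94 on the ground and 8.05, 8.14, 8.29 and 7.47 in space (-2.90 ± 0.64, adjusted p = 0.044). Of 17 abscisic acid and dehydration genes 2 rose and 1 fell, with a median of 0.84. GH3.3, an enzyme that conjugates auxin to amino acids, rose by 2.75 (SE 0.63, adjusted p = 0.048), and PIN3, an auxin efflux carrier, was 6.23 to 6.53 on the ground and 9.20, 8.66, 6.97 and 8.32 in space (1.93 ± 0.38, adjusted p = 0.031), the 2 called of 15 auxin genes. Among the 15 largest rises, and members of no list, AT2G41190, a membrane protein of the amino acid transporter family, was 8.83, 7.77, 8.73 and 7.21 on the ground and 11.65, 10.81, 12.10 and 10.90 in space (3.23 ± 0.45, adjusted p = 0.016). HAT2, a homeodomain factor, rose by 2.69 (SE 0.56, adjusted p = 0.038), and AT5G61590, an ERF factor listed also as DEWAX, rose by 2.78 (SE 0.49, adjusted p = 0.025). None of these 8 genes was called without WT-SD-sp replicate 1.

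Single chloroplast genes rose in space, and few members of each list were called. These were 2 of 19 chlorophyll synthesis genes, 1 of 16 light-harvesting genes and 1 of 18 Calvin cycle genes, beside 4.25% of all probe sets tested. CaS, a thylakoid calcium-sensing protein, was 7.0, 7.29, 6.23 and 6.23 on the ground and 10.65, 10.48, 8.87 and 9.08 in space (3.08 ± 0.21, adjusted p = 0.0023), and WT exceeded FG in both environments. GLU1, the ferredoxin-dependent glutamate synthase of photorespiratory nitrogen recovery, was 6.62, 7.57, 8.16 and 7.18 on the ground and 11.45, 10.90, 11.19 and 10.76 in space, a 12.9-fold rise (3.69 ± 0.34, adjusted p = 0.0084). GLN2, the chloroplast glutamine synthetase that works with it, rose by 2.04 (SE 0.47, adjusted p = 0.048), and these were the 2 called of 11 nitrogen assimilation genes. APX4, a thylakoid lumen relative of ascorbate peroxidases, was 6.23, 8.25, 7.38 and 6.42 on the ground and 10.09 to 10.50 in space (3.24 ± 0.43, adjusted p = 0.015). NPQ4, the PsbS protein of non-photochemical quenching, rose by 2.48 (SE 0.39, adjusted p = 0.021), the 1 called of 8 photoprotection genes. CHLH, a subunit of the magnesium chelatase of chlorophyll synthesis, rose by 2.52 (SE 0.49, adjusted p = 0.030), CAO, which makes chlorophyll b, by 1.45 (SE 0.31, adjusted p = 0.042), and LHCB7, a light-harvesting protein, by 1.03 (SE 0.23, adjusted p = 0.045). LHCB7 was called in 0 of the 8 fits with an array left out and, like CAO, not under median centring or quantile normalization, and GLN2 and CAO were not called under the replicate block or median centring.

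In the carbon metabolism lists most members were positive and few were called. Over all probe sets tested the median was 0.12 and 4.25% were called. GAPB, a subunit of the chloroplast glyceraldehyde phosphate dehydrogenase, was 8.61, 11.02, 9.98 and 8.10 on the ground and 12.21, 12.07, 11.45 and 11.58 in space (2.40 ± 0.56, adjusted p = 0.0496), the 1 called of 18 Calvin cycle genes, of which 16 were positive with a median of 0.75. GAPB was called in 1 of the 8 fits with an array left out and not under the replicate block or median centring, each of which left 0 calls in that list. APS1, the small subunit of ADP-glucose pyrophosphorylase, was 6.23, 6.63, 7.52 and 6.23 on the ground and 10.10, 9.51, 9.53 and 9.55 in space (3.02 ± 0.33, adjusted p = 0.0088). SS1, a starch synthase, rose by 1.45 (SE 0.23, adjusted p = 0.021). All 11 starch synthesis genes were positive, with a median of 0.80. APS1 and SS1 passed the filter only through space arrays and stood at or near the floor on most ground arrays. They had little room to be negative, so their sign carries little information. Of 16 starch breakdown genes 15 were positive and 0 were called (limma, 8 at an unadjusted p under 0.05, and 4 by the Student t-test before adjustment), with a median of 0.96. Under spike-in scaling 10 of these were called, without WT-SD-gr replicate 2 it was 2, and without any other array 0. Among 16 light-harvesting genes 1 rose, with a median of 0.48 (-0.17 in WT and 1.14 in FG). The pooled median was 0.18 without WT-SD-gr replicate 1 and -0.14 without FG-SD-gr replicate 2. The leaf mesophyll markers, among them the genes of Rubisco, carbonic anhydrase and GAPA, had a median of 0.77 (0.28 in WT and 1.61 in FG). Of these 6, 0 were called by limma and 1 had an unadjusted p under 0.05. Their summed signal spanned 22031 to 112860 on the ground and 77651 to 103940 in space. The part of these values in the photosynthetic lists was not tested. With WT-SD-sp replicate 1 left out, 0 genes of the Calvin cycle, light harvesting, chlorophyll, starch and nitrogen lists were called.

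Nucleolar genes of ribosome assembly were higher in space. All 14 listed were tested and positive, 5 rose and 0 fell, and the median was 1.4. GAR1, a protein of the H/ACA particles that guide pseudouridylation of ribosomal RNA, was 7.89, 8.75, 8.56 and 8.66 on the ground and between 9.68 and 11 in space (2.02 ± 0.32, adjusted p = 0.021). NOP56, a core protein of the box C/D particles, was 7.83, 7.04, 7.42 and 7.0 on the ground and 9.26, 9.25, 8.06 and 9.75 in space (1.75 ± 0.37, adjusted p = 0.039). In both genes FG-SD-sp replicate 1 was the lowest of the space arrays, though above all ground arrays. A probe set shared by AT5G27120 and AT5G27140 rose by at least 1.87 (adjusted p = 0.025), NUC1, a nucleolin, by 1.58 (SE 0.36, adjusted p = 0.049), and the fifth, FIB1, the fibrillarin methyltransferase looked at after its values were seen, by 1.54 (SE 0.29, adjusted p = 0.028). The 137 cytosolic ribosomal protein probe sets had a median of 0.36 (0.69 in WT and 0.07 in FG) with 4 higher and 0 lower. That median was 0.20 under median centring and 0.92 under spike-in scaling, and the calls numbered 2 under median centring or the replicate block, 46 under spike-in scaling, and 0 to 15 with single arrays left out (15 without FG-SD-sp replicate 1, 6 without FG-SD-gr replicate 2 and 0 or 1 without any other). The nucleolar median ran from 1.09 to 1.77 with single arrays left out and the number called from 0, when either WT space array or FG-SD-sp replicate 2 was left out, to 9, when FG-SD-sp replicate 1 was left out.

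Several lists held few or no calls. No member of the lists of dark and sugar starvation (21 tested), endoplasmic reticulum chaperones (15), senescence (12), sulfate assimilation (7), flavonoids (5) or DNA replication (5) was called in either direction (limma). At an unadjusted p under 0.05 these lists held 3, 1, 1, 2, 3 and 1 members, and the Student t-test called 2, 0, 1, 0, 2 and 0 before adjustment and none after it. Of 23 flavonoid genes, 18 were below the filter, among them CHS, F3H, FLS1 and DFR, so most of that pathway was not tested. The median of the 5 tested was -1.79. Among them PAL1 had -2.11 and C4H -1.79 (limma, adjusted p = 0.18 and 0.072), both entry enzymes of phenylpropanoid synthesis. FAMA, a factor that drives the last step of guard cell formation, was 7.20, 7.71, 7.37 and 7.54 on the ground and 6.23, 6.23, 6.23 and 6.52 in space (-1.15 ± 0.19, adjusted p = 0.022). The summed signal of the 6 guard cell markers was 635 to 909 on the ground and 454 to 513 in space, and GORK, KAT2 and SLAC1 were present on no array. Each marker at the floor counts as 75 in these sums, and 4 of the 6 were below the filter. The space sums thus lie close to those of 6 markers at the floor. Whether the share of guard cells in the sampled leaves differed was not tested. CB5-C, a cytochrome b5, was 10.49, 10.13, 10.23 and 10.75 on the ground and 7.37, 6.25, 7.48 and 7.44 in space (-3.26 ± 0.29, adjusted p = 0.0070) and was called with any array left out.

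Space was set against ground in LD plants with other arrays, so that the 2 comparisons share no array. LD and SD plants did share the flight unit and its recovery, and their controls the ground unit. Agreement between the 2 comparisons is therefore not independent of unit or handling. In the LD fit alone 3026 of 13964 probe sets were called (21.7%). In 1 fit over all 16 arrays, from which LD values are given here, 363 of the 570 SD calls were also called under LD, which is 63.7% of the SD calls and 12.2% of the 2967 LD calls (20.8% of the probe sets in that fit), and 361 of these had the same direction. The sign was shared by 538 of the 570. The SD rises had a median LD change of 1.39 and the SD falls one of -1.31. Of all 14286 probe sets in that fit, 623 had a called difference between the daylengths (4.36%), and 51 of the 570 were among them. Of these 51, 22 had the larger change under LD with the same sign, 8 the larger under SD with the same sign, and 21 the opposite sign under LD. With arrays left out singly, the count of 623 was lowest at 270 (WT-SD-sp replicate 2 left out) and highest at 929 (WT-SD-gr replicate 1 left out).

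**Figure D5:**
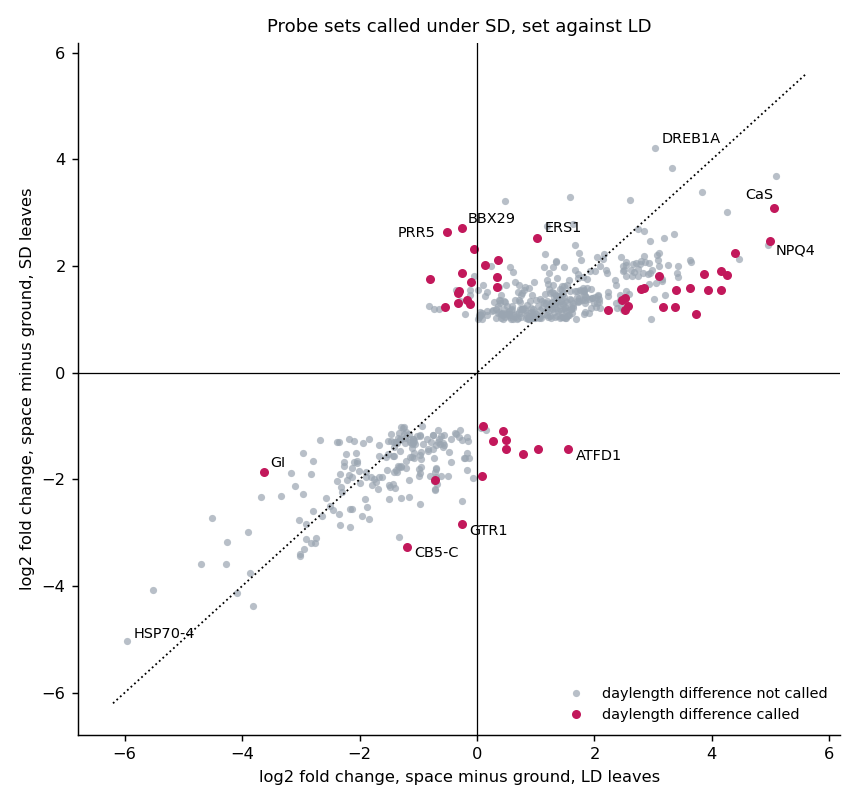
Log2 fold change (space minus ground) of the 570 SD calls under LD (horizontal) and under SD (vertical), with the dotted line of equality and, in magenta, the 51 with a called difference between daylengths. PRR5 and BBX29 rose under SD and had values just below 0 under LD, while CaS and NPQ4 rose under both and further under LD.

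Clock genes were among those whose response differed between the daylengths. RVE1 and RVE2, dawn-phased MYB relatives of LHY, were 6.64 to 7.34 and 6.23 to 6.89 on the SD ground arrays and 7.08 to 7.51 and 7.04 to 7.34 in space. Under LD, where neither was detected above the floor on the ground, they rose by at least 5.00 and 5.27. The fitted differences between daylengths were -4.52 and -4.53 (limma, adjusted p = 2.27e-05 and 2.91e-05). The size is a lower bound for RVE1 but not for RVE2, which stood at the floor on some SD ground arrays. COL2, another CONSTANS-like gene, lay between 6.23 and 7.34 on the SD arrays, below the filter, and rose by 5.86 under LD. PRR7 had -3.0 ± 0.19 under LD against 0.27 under SD (difference 3.27 ± 0.27, adjusted p = 0.00019). PRR5 had -0.51 under LD (difference 3.14 ± 0.28, adjusted p = 0.00031), and a probe set shared by PRR9 (AT2G46790) and AT2G46670 had 1.82 under SD and -2.61 under LD (difference 4.44 ± 0.65, adjusted p = 0.0047). GI fell further under LD, by at least 3.64, as all 4 LD space arrays were at the floor (difference of at least 1.78, adjusted p = 0.015). LHY and CCA1 rose by 3.31 ± 0.31 and 2.90 ± 0.47 under LD, and their differences between daylengths, 0.52 ± 0.44 and -0.50 ± 0.66, had adjusted p of 0.54 and 0.72.

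Light and ethylene genes also parted by daylength. ELIP2, an early light-induced protein of the thylakoid, was at or near the floor on all 8 SD arrays (6.23 to 6.74) and rose by at least 4.79 under LD. NPQ4 rose by 4.99 ± 0.38 and CaS by 5.06 ± 0.35 under LD, more than under SD (differences -2.51 ± 0.54 and -1.98 ± 0.50, adjusted p = 0.027 and 0.049). The FG ground arrays of CaS under SD stood at the floor, so its difference is not exact. AT3G48420, a haloacid dehalogenase-like hydrolase, was at the floor on all 4 SD ground arrays and 7.97, 7.71, 8.10 and 7.50 in space, a rise of at least 1.59. Under LD the ground arrays were at the floor too and it rose by at least 3.63, so that the size of the difference between daylengths is not known. In the other direction, PHOT1, a blue-light receptor, rose by 1.53 ± 0.27 under SD and had -0.31 ± 0.22 under LD (difference 1.84 ± 0.31, adjusted p = 0.0096). ERS1 rose by 1.03 ± 0.20 and ERS2 had -0.32 ± 0.26 under LD (differences 1.51 ± 0.28 and 1.62 ± 0.37, adjusted p = 0.014 and 0.034). ERS2 was 6.23, 7.60, 6.23 and 6.23 on the LD ground arrays and 6.23 to 6.32 in LD space. At that level a fall under LD could hardly be seen, so its difference is not exact. CB5-C fell by 1.19 under LD and by 3.26 under SD (difference -2.07 ± 0.41, adjusted p = 0.018). BAM3, a chloroplast β-amylase induced by cold, had -0.64 ± 0.55 under SD and 4.15 ± 0.50 under LD (difference -4.79 ± 0.71, adjusted p = 0.0047). Since the SD plants were also the heated ones, daylength and heating cannot be told apart in these differences.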

How the data were processed

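Leaf RNA had been hybridised to 16 one-colour ATH1 arrays, 2 per group of genotype, daylength and environment, and the 8 SD arrays were used here. The deposited values are log2 signals that the authors computed with MAS 5.0 and scaled to a trimmed mean signal of 500 (the lowest and highest 2% of probe sets left out), with detection calls beside them. The floor of 75 given in the methods is not applied in them, and was applied here. The second deposited table differs by at most 5e-09. The genome build is not given in the sources.

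Probe sets above the floor on both arrays of at least 1 SD group were kept (13416 of 22810, without 64 controls; 12782 name 1 gene). limma 3.58.1 in R 4.3.3 (lmFit and eBayes) was fitted to the 8 arrays with genotype and environment as terms (5 residual and 3.21 prior degrees of freedom), p-values were adjusted by Benjamini-Hochberg over all probe sets tested, and a call needed an adjusted p under 0.05 and a 2-fold change. LD values and daylength differences came from group means over 16 arrays. A change is given as "at least" where the lower group held no array that was both detected as present and above the floor.

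Members of the comparison and the 39 gene lists were chosen with earlier results of these data known, and no list was given a set test. Each gene entered a list by its brightest probe set. For the genes followed singly, a called probe set was taken first and brightness decided among the rest. Named genes were the 15 largest rises and falls with no overlap, up to 4 called members per list and direction, whole lists for the clock, CONSTANS-like, floral, cold, jasmonate signalling and heat-shock genes, the 5 largest daylength differences each way and genes named in the paper. CYP79B3, FIB1 and GTR1 were added after their values were seen. Alternatives were 3 other scalings, 2 other floors, 2 other filters, a fit of all 16 arrays, a replicate block, array weights, a Student t-test and leaving out each array. That t-test set 4 space against 4 ground arrays, with genotypes pooled and no floor. It is not the authors' rule, which took the spread of the 2 ground replicates and required the same tendency in both. Precision is limited by the number of arrays.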

Additional observations from a re-analysis of the deposited data

Results flagged for a closer look

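Of 210 sets of 4 arrays (the space or the ground arrays, for each gene named or array measure), 13 held an array whose gap to its nearest neighbour, as a share of the range, was above Dixon's critical value for 4 samples, and chance gives about 1 in 20. On the ground, WT-SD-gr replicate 2 stood apart for JAZ9 (0.896, lowest), ERS2 (0.874, highest) and UGT74B1 (0.854, highest), and WT-SD-gr replicate 1 for RVE2 (0.856, highest). In space, the array apart was FG-SD-sp replicate 1 for present calls (0.866, the fewest), AT1G51920 (0.893) and ELIP2 (1). It was FG-SD-sp replicate 2 for AT1G76960 (0.925, lowest), FAMA (1) and FT (1), WT-SD-sp replicate 1 for APS1 (0.929, highest) and WT-SD-sp replicate 2 for CB5-C (0.913, lowest) and PCO1 (1). The value of 1 means that the other 3 arrays lay at the floor.

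The response to space differed between SD and LD for 23 of the 101 genes followed, by the daylength term of the limma fit (SD minus LD, log2). Positive differences, where the SD response was the higher, were 4.44 for the PRR9 probe set (AT2G46670;AT2G46790), 3.27 for PRR7, 3.26 for the chloroplast cold-response gene COR413IM1, 3.14 for PRR5, 2.96 for BBX29, 1.86 for COL5, 1.84 for PHOT1, 1.78 for GI, 1.62 for ERS2 and 1.51 for ERS1. Negative differences were -6.02 for COL2, -5 for ELIP2, -4.79 for BAM3, -4.53 for RVE2, -4.52 for RVE1, -2.74 for COL9, -2.59 for GTR1, -2.51 for NPQ4, -2.31 for CYP79B3, -2.14 for ELF4, -2.07 for CB5-C, -2.04 for AT3G48420 and -1.98 for CaS. The values for GI and RVE1 are lower bounds in size, since the LD group with the lower signal held no array detected above the floor. The size for AT3G48420 and ELIP2 is not known, since under SD too the floor bounded 1 group or both. For RVE2, COL9, COL2, CaS, ERS2, BBX29 and the PRR9 probe set, 1 or more SD arrays stood at the floor. Their differences are thus not exact and not strict bounds. ERS2 was also at or near the floor on every LD array except WT-LD-gr replicate 2. COR413IM1 overlapped between environments under SD (0.52 ± 0.38) and had -2.74 ± 0.43 under LD. Heating and daylength cannot be told apart in any of them.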

How the results depend on the processing

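The SD count of 570 (364 higher, 206 lower) stayed within 1.5 times under median centring, quantile normalization, other floors, the present-call filter, all 16 arrays and the replicate block, though median centring left 226 higher. It was 3122 with 2970 higher under spike-in scaling, 989 (553 and 436) with array weights, and 55 (43 and 12) with no filter. The Student t-test called 1283 (796 and 487) unadjusted and 133 (93 and 40) after Benjamini-Hochberg. Leaving out single arrays gave 5 to 746 calls, 4 to 464 higher and 1 to 284 lower. For the daylength difference these ranges were 270 to 929, 70 to 403 and 200 to 534. The LD count stayed within 1.5 times in every fit run. Within WT 0 to 1 was called as arrays were left out and 0 with the block, and within FG 0, but 10 after quantile normalization. The causes of these shifts were not tested. The median of all probe sets was 0.12, and -0.04, 0.04 and 0.62 under the 3 other scalings.

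For the 78 called genes followed, 725 of 936 alternative values and 325 of 624 with an array left out were also past the threshold, and 0 changed sign. Genes not called that changed sign were COL9 and FT (0.0498 and 0.132 with no floor and by the Student t-test, both with and without adjustment) and ELIP2 (0.11 under spike-in scaling). Replicate numbers did not pair the samples, since same-numbered arrays correlated at -0.246 to 0.178 in their deviations from group means, and the replicate block called 509. Arrays of 2 per group limit which changes can be called, and the dimmest signals are bounded by the floor.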
